A study of Mus musculus with 6 samples.

Results

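Primary granule genes and the C/EBP transcription factors were followed in bone marrow stem and progenitor cells sorted from mice with an altered Erg gene. The 9 genes were Mpo, Elane, Prtn3, Ctsg, Ms4a3, Cebpa, Cebpb, Cebpd and Cebpe, named as markers of granulocyte-monocyte priming in multipotent cells and taken by symbol, with no threshold on a measured value. The members are the probe sets that the array's annotation maps to these symbols alone, which are 10 of the 45037 probe sets tested and cover 8 of the 9 genes, among 18193 genes named alone by a probe set. Cebpb and Cebpd have 2 probe sets each, and Cebpe was not analysed here.

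The cells came from adult mice of mixed 129-B6 background with the genotype Mx1Cre;Ergkd/+;R26Y. Both groups thus came from mice with 1 knockdown allele of Erg, an interferon-inducible Cre and a Cre-dependent YFP reporter. LSK cells, which lack lineage antigens and carry Sca-1 and c-Kit, were sorted by YFP from each of 3 mice (278, 279 and 281). YFP-negative cells are labelled Erg-knockdown, with a reduction of about 40%, and YFP-positive cells are labelled Erg-restored, to the wild-type level. The labels used here do not say how Cre was induced. The groups differ in Cre action and reporter as well as in the labelled Erg dose, and these cannot be told apart.

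Promyelocytes and granulocyte-monocyte progenitors pack primary (azurophil) granules with myeloperoxidase and serine proteases, and multipotent cells that lean to this fate already transcribe the same genes. C/EBPα, with PU.1, opens this programme, C/EBPε drives the later granules of maturing neutrophils, and C/EBPβ and C/EBPδ serve emergency granulopoiesis, monocytes and cytokine responses. ERG belongs to the ETS family, as does PU.1, and maintains hematopoietic stem cells.

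The 6 arrays had a mean intensity per probe set of 1051 to 1068 in the knockdown-labelled group and 1031 to 1071 in the restored-labelled group. Precision is limited by the number of arrays. The probe sets of Erg itself disagreed in direction, and neither showed a reduction of the labelled size. The brighter read 2810 ± 140 in the cells labelled knockdown against 2764 ± 124 in the restored-labelled cells, a difference of 0.024 ± 0.12. The dimmer read 1573 ± 245 against 1696 ± 159 (SD, n = 3 arrays each) and was lower in all 3 mice, with log2 differences of -0.031, -0.21 and -0.10 and a mean of -0.11 ± 0.12. The groups are therefore called knockdown-labelled and restored-labelled. The gate's c-Kit gene, Kit, read 4670 to 5206 in knockdown-labelled and 3972 to 4572 in restored-labelled cells, while Ly6a, which encodes Sca-1, was not analysed here. The restored-labelled array of mouse 279 stood apart in its RNA quality controls, with a 3′ over 5′ log2 ratio of 0.68 for Gapdh, against 0.45 to 0.51 on the knockdown-labelled arrays and 0.43 on the other restored-labelled arrays. Member values without it are given beside the results.

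The mouse numbers are those of the labels, and the arrays of mice 279 and 281 did not pair by them. Deviations of 10825 genes from their group means correlated at 0.45 between the arrays of mouse 278, but at -0.18 within mouse 279 and -0.30 within mouse 281. Across those mice the coefficient was 0.37 for knockdown-labelled 279 with restored-labelled 281 and 0.42 for knockdown-labelled 281 with restored-labelled 279. Whether the labels of mice 279 and 281 are exchanged in 1 of the groups was not tested. Every value given for mouse 279 or 281 alone rests on these labels, as do standard errors and intervals, while the mean difference between the groups does not.

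In these cells no member passed the test, and with the mice as labelled no granule gene differed in the same direction in every mouse. Each difference below is the knockdown-labelled minus the restored-labelled level in log2(intensity + 16), given with its standard error from limma fitted with a term for the mouse. None of the 10 member probe sets passed an adjusted p of 0.05, where 0.0% of all probe sets did (0 of 45037). At an unadjusted p below 0.05 there was 1 member, a Cebpb probe set on the lower side, where 6.01% of all probe sets stood below that p in either direction and 1.55% on the lower side. Across all probe sets 2007 were higher and 698 lower at that p, a share of 74.2% higher (4.46% of all probe sets were higher at that p, and no member), which became 36.8% after centring the arrays on their medians. That centring moved the median difference of all probe sets to -0.078 from 0.029. On simulated arrays with 200 changed probe sets among 45037, 13.8% of the 2-fold changes and 95% of the 4-fold ones were found. A change of 2-fold in a single member could thus easily be missed here. In the measured data even Irf4 at 5.18-fold and Ighm at 4.42-fold did not pass (adjusted p = 0.817 each, limma). Whether a 4-fold change in a single member would be found here was not tested.

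The 5 granule probe sets were each slightly lower on average in the knockdown-labelled cells, with a median difference of -0.068 and a range from -0.088 to -0.038, while the median over all probe sets was 0.029. With the labelled pairs, the mice went opposite ways. The medians of the 5 in mice 278, 279 and 281 were -0.064, 0.34 and -0.41, so in mouse 279 each of the 5 was higher in the knockdown-labelled cells and in mouse 281 each was lower. Without mouse 281 the median was 0.14, and without mouse 279 it was -0.24. Leaving out only the restored-labelled array of mouse 279 gave -0.16, in a fit with no mouse term, with Mpo at -0.050, Elane at -0.22, Prtn3 at -0.14, Ctsg at -0.16 and Ms4a3 at -0.28. With the restored-labelled arrays of mice 279 and 281 exchanged, Prtn3, Ctsg and Ms4a3 would be lower in knockdown-labelled cells of all 3 pairs. Mpo and Elane would keep opposite signs. Their knockdown-labelled array of mouse 279 was slightly above the restored-labelled array of mouse 281, at 13607 against 13191 and 10688 against 10632. In sorted bulk RNA, fewer cells that express a gene and less RNA of it per cell cannot be told apart.

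**Figure D1:**
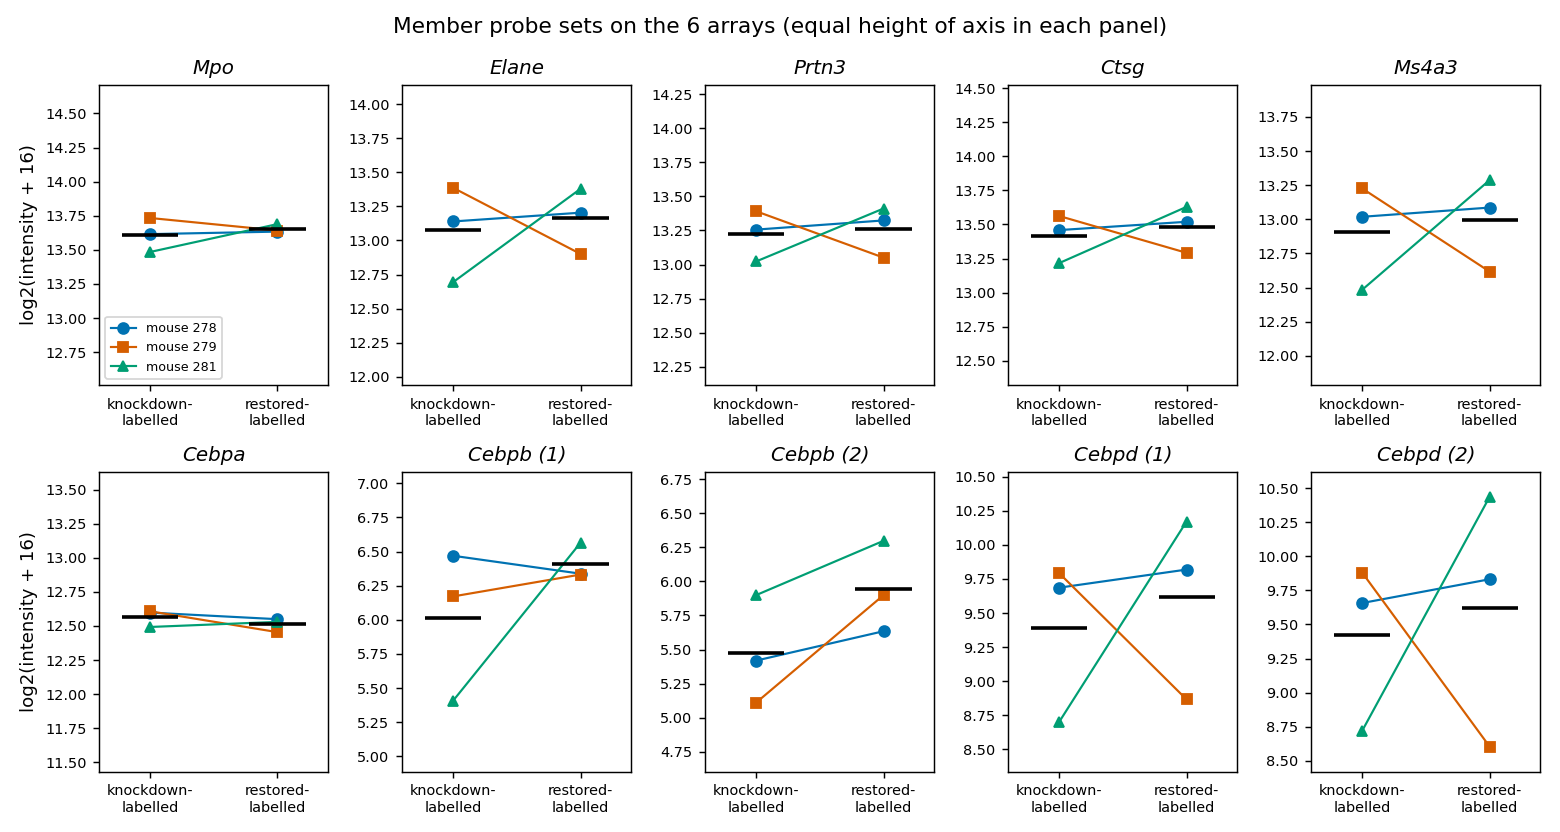
Level of each member probe set, as log2(intensity + 16), in knockdown-labelled (left) and restored-labelled (right) cells, with 1 line per mouse and a black bar at the mean of 3 arrays; each panel spans the same height. The lines of mice 279 and 281 cross in every panel except the second probe set of Cebpb, and Cebpa and Mpo are nearly flat.

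Mpo, on chromosome 11 (87793784 to 87804412 in GRCm38.p6), encodes myeloperoxidase, which makes hypochlorous acid from hydrogen peroxide. Its probe set read 12534, 13607 and 11446 in the knockdown-labelled cells of mice 278, 279 and 281, against 12696, 12768 and 13191 in the restored-labelled cells. The knockdown-labelled cells of mouse 281 were the lowest and those of mouse 279 the highest, and the groups overlapped. The difference was -0.044 ± 0.13 (adjusted p = 0.957, limma), with a 95% interval of 0.765-fold to 1.23-fold. The highest of the 6 arrays was 1.19 times the lowest. The brightest probe set of any kind read 19086 to 19840 on the knockdown-labelled and 19389 to 20130 on the restored-labelled arrays, and whether a value as high as that of Mpo still follows the RNA linearly was not tested.

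Elane and Prtn3 lie side by side on chromosome 10, at 79886312 to 79888216 and 79879667 to 79883174, with 3137 bases between them. Elane encodes neutrophil elastase, which digests bacterial proteins and extracellular matrix. It read 9006, 10688 and 6611 in the knockdown-labelled cells of the 3 mice, against 9417, 7633 and 10632 in the restored-labelled cells. The knockdown-labelled cells had 1.4 times the restored-labelled level in mouse 279 and 0.622 times in mouse 281, and the groups overlapped fully. The difference was -0.088 ± 0.26 (adjusted p = 0.957, limma), and its 95% interval, from 0.584-fold to 1.52-fold, leaves room for a sizeable change in either direction.

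Prtn3 encodes proteinase 3, a relative of elastase with a similar site of storage. Its levels were 9768, 10725 and 8307 in knockdown-labelled cells, against 10235, 8470 and 10875 in restored-labelled cells of mice 278, 279 and 281. As for Elane, the knockdown-labelled cells of mouse 281 were lowest and the restored-labelled cells of mouse 279 next. The difference was -0.038 ± 0.18 (adjusted p = 0.976, limma; 95% interval 0.693-fold to 1.37-fold).

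Ctsg, on chromosome 14 (56099885 to 56102574), encodes cathepsin G, a protease of the same granules with chymotrypsin-like specificity. It read 11240, 12076 and 9501 in the knockdown-labelled cells, against 11724, 10011 and 12650 in the restored-labelled cells. Here too the lowest array was the knockdown-labelled one of mouse 281 and the highest the restored-labelled one of the same mouse. The difference was -0.068 ± 0.18 (adjusted p = 0.952, limma; 95% interval 0.688-fold to 1.32-fold).

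Ms4a3, on chromosome 19 (11629499 to 11640851), encodes a four-pass membrane protein whose expression marks granulocyte-monocyte progenitors and their progeny. It moved most among the granule members, at 8281, 9567 and 5710 in knockdown-labelled cells, against 8679, 6265 and 9978 in restored-labelled cells. The ratio of knockdown-labelled to restored-labelled was 0.954, 1.53 and 0.572 in mice 278, 279 and 281. The difference averaged -0.087 ± 0.30 (adjusted p = 0.962, limma), and its 95% interval ran from 0.538-fold to 1.65-fold.

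**Figure D2:**
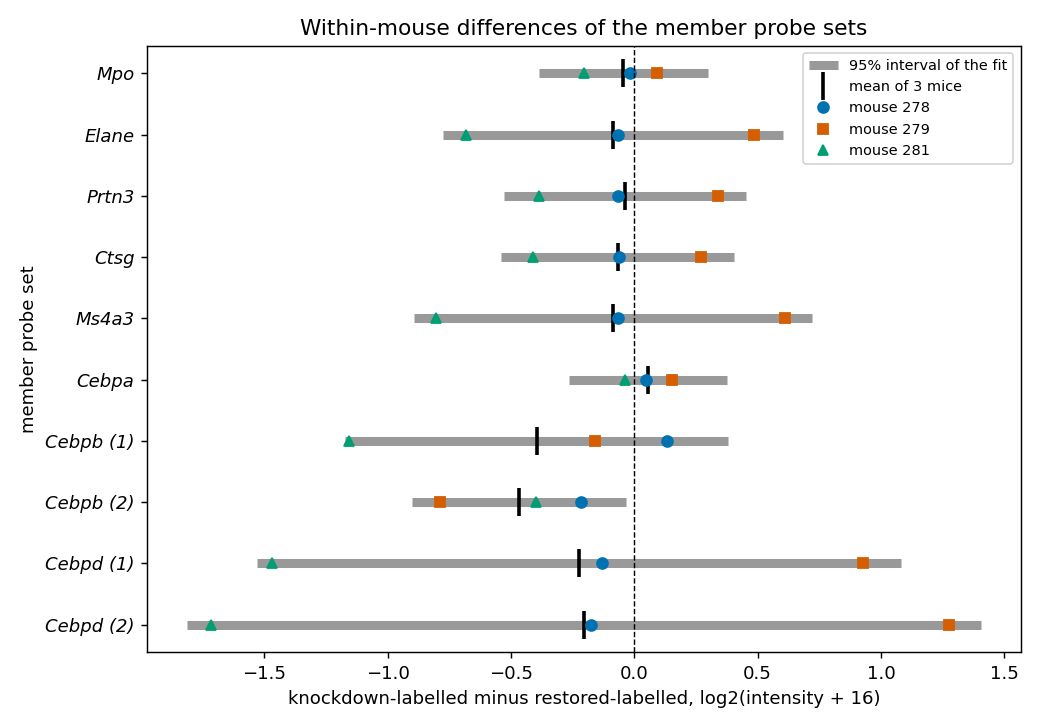
Difference of each member probe set, knockdown-labelled minus restored-labelled in log2(intensity + 16), in the single mice (symbols), with the mean of the 3 mice (black tick) and the 95% interval of the limma fit (grey bar). The interval includes 0 in 9 of 10 probe sets, and mice 279 and 281 lie on opposite sides of 0 in 8.

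Levels of the granule genes went together over the 6 arrays. All 5 probe sets had their lowest value on the knockdown-labelled array of mouse 281, and in 4 of 5 the next lowest was the restored-labelled array of mouse 279, Mpo being the exception. The highest arrays of all 5 were the knockdown-labelled one of mouse 279 and the restored-labelled one of mouse 281. This order was noticed after the values were seen. Over all 45037 probe sets, those same arrays were the lowest pair in 8.49% and the highest pair in 6.19%. Of the 10 member probe sets 8 were higher in the knockdown-labelled cells of mouse 279 and lower in those of mouse 281, and 23.5% of all probe sets were. These are the arrays whose deviations went together over all genes, as given above.

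Neutrophil transcripts shared part of this order. The list of secondary granule and neutrophil genes had 16 of 21 members measured, and 13 of the 16 were highest on the same arrays as the primary granule genes. Its summed intensity was 36905 to 68554 on the knockdown-labelled arrays and 27589 to 64475 on the restored-labelled arrays, and none of its measured members stood at 0 on any array. The defining gene Ltf, which encodes lactoferrin, read 138, 1953 and 793 in the knockdown-labelled cells, against 153, 156 and 1066 in the restored-labelled cells. The lowest arrays were less alike: 6 of the 16 (37.5%) had the same lowest pair as the granule members, against 8.49% of all probe sets. Between the knockdown-labelled cells of mice 281 and 278 the list was split, with Ltf higher in mouse 281 but S100a8, for example, at 9788 in mouse 281 and 11402 in mouse 278. The part of mature neutrophils or their RNA in the primary granule result was not tested.

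**Figure D3:**
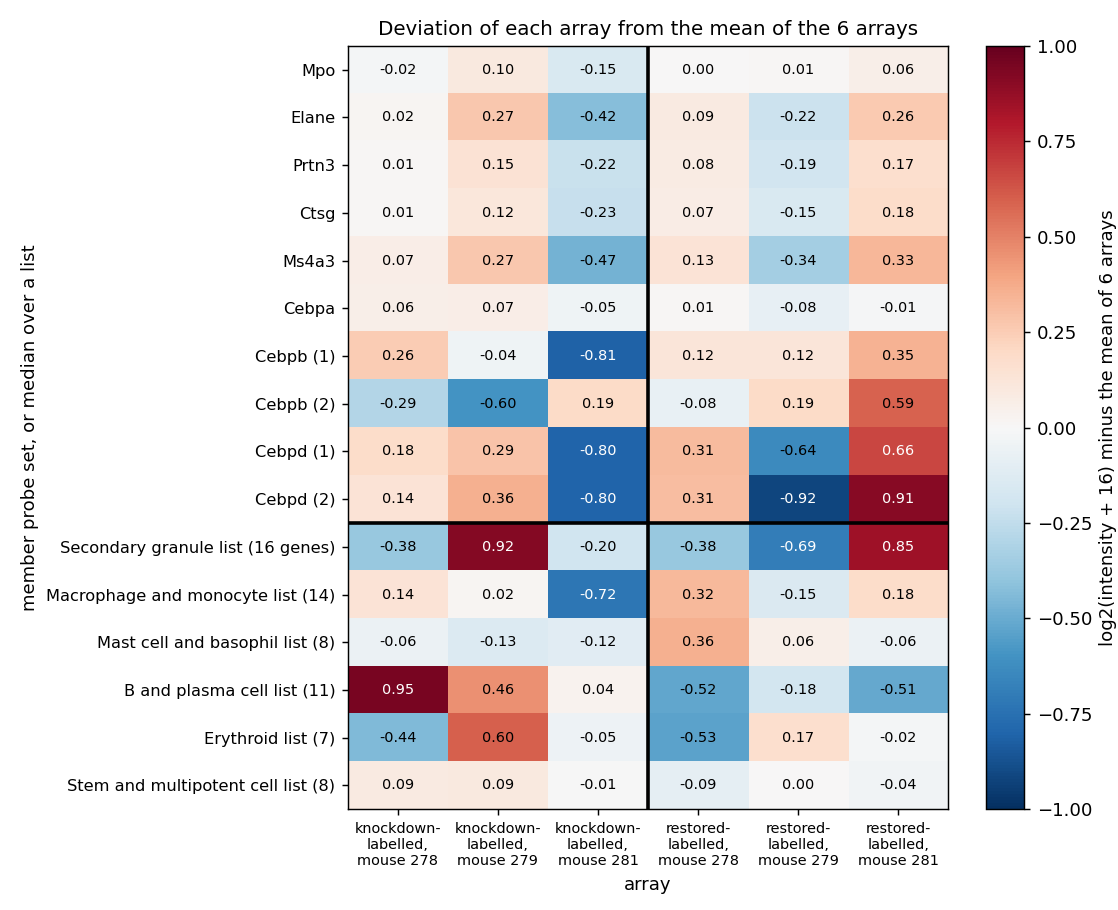
Deviation of each array (columns) from the mean of the 6 arrays on the log2(intensity + 16) scale, for each member probe set and, below the line, as the median over lists of other cell types' markers. Granule genes other than Mpo, and Cebpd, are low in the knockdown-labelled cells of mouse 281 and the restored-labelled cells of mouse 279; the secondary granule list is high in the knockdown-labelled cells of mouse 279 (0.92) and the restored-labelled cells of mouse 281 (0.85).

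The bases before the start of the granule genes are shown because these genes went together and because their promoters are known to bind PU.1, an ETS family factor. From RefSeq (GRCm38.p6), 7 of the 9 genes had a sequence, and the 250 bases before each annotated start were searched on both strands. Letters searched were GAGGAA as a PU.1 core, AGGAAG as an ETS core, TTGCNNAA for C/EBP, TGTGGT for RUNX and AACTG for MYB. The PU.1 and ETS cores overlap in AGGAA. Capitals mark matches to either core, in the order Mpo (chr11:87793534-87793783, plus strand), Elane (chr10:79886062-79886311, plus strand), Prtn3 (chr10:79879417-79879666, plus strand) and Ctsg (chr14:56102575-56102824, minus strand).
Mpo: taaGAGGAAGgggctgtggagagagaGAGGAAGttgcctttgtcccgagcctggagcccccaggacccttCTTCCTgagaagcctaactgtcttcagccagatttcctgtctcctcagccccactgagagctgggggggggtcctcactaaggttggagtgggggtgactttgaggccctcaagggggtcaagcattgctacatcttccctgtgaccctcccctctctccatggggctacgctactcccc
Elane: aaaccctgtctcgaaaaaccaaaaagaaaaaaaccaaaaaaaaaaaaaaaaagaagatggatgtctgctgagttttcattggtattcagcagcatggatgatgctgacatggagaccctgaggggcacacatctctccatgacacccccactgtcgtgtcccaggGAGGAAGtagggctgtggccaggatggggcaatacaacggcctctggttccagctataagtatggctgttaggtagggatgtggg
Prtn3: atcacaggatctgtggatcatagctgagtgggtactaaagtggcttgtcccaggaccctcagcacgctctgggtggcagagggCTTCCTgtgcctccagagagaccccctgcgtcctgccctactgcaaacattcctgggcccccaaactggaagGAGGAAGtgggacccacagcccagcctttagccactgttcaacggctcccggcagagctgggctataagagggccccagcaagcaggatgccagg
Ctsg: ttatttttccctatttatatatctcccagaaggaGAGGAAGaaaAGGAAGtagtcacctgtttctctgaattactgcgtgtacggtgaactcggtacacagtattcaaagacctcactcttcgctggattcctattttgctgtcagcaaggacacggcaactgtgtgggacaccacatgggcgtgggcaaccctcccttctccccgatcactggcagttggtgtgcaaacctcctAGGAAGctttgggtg

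GAGGAAG, which holds both cores, stood in the promoters of Mpo, Elane, Prtn3 and Ctsg, with its first base 85 bases before the start of Elane and 95 before that of Prtn3. This 7-letter run was picked after the matches were seen, and it occurs in 10.6% of all 32851 promoter windows of that length. AGGAAG was found in 5 of the 7 member windows, among them Ms4a3, and in 29.5% of all windows. GAGGAA was found in 4 of 7 against 23.3%. The MYB letters were found in 3 of 7 against 39.1% and the RUNX letters in 1 of 7, Ctsg, against 14%. No window held the C/EBP letters, against 9.56% of all windows, which says only that this spelling is not in these bases. Matches are a description of the sequence, and binding was not measured here.

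**Figure D4:**
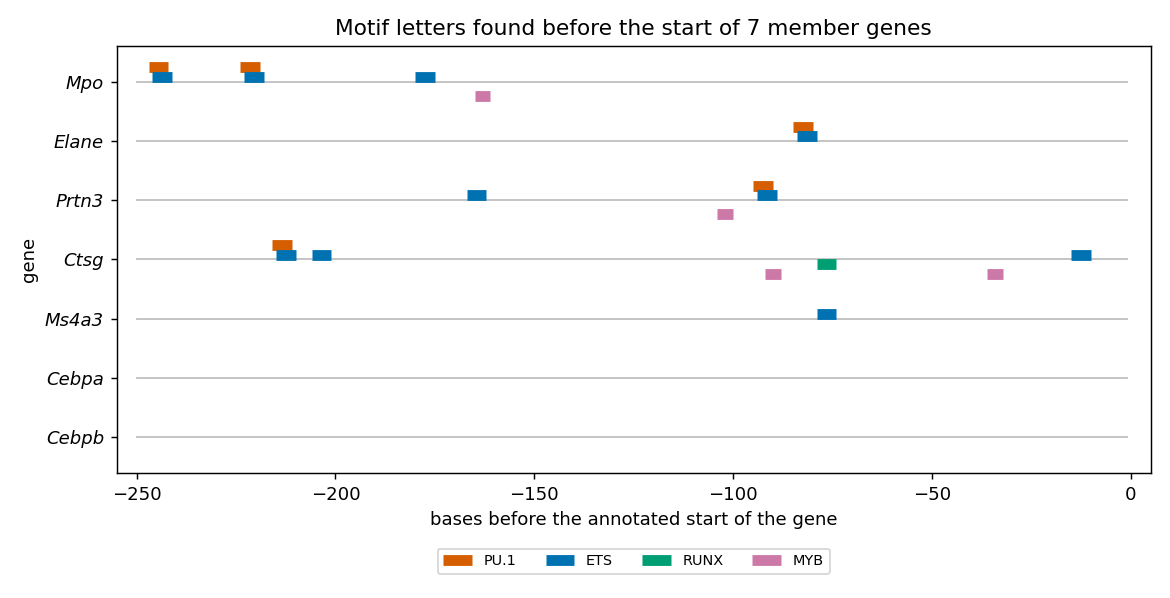
Position of the motif letters in the 250 bases before the annotated start of 7 member genes, drawn to scale, with the start at the right. PU.1 and ETS letters overlap near base 85 before Elane and base 95 before Prtn3, while Cebpa and Cebpb hold none of the motifs drawn.

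Among the C/EBP factors, Cebpa was the steadiest and Cebpd the most variable. Cebpa, on chromosome 7 (35119293 to 35121928), encodes the factor without which granulocyte-monocyte progenitors do not form. It read 6184, 6225 and 5747 in the knockdown-labelled cells of mice 278, 279 and 281, against 5980, 5597 and 5899 in the restored-labelled cells. All 6 values lay within a factor of 1.11, and the groups overlapped. The difference was 0.055 ± 0.12 (adjusted p = 0.942, limma), with a 95% interval of 0.832-fold to 1.30-fold, and it turned to -0.052 with arrays centred on their median. The SD of Cebpa over the 6 arrays was 0.059 on the log2 scale, and 7.9% of the probe sets at or above the median intensity of 149 had a smaller SD.

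Cebpd, on chromosome 16 (15887286 to 15889545), encodes C/EBPδ, an early-response factor of inflammation. Its first probe set read 808, 871 and 400.4 in the knockdown-labelled cells, against 887, 451 and 1137 in the restored-labelled cells. The second read 791, 927 and 406 in the knockdown-labelled cells, against 895, 373 and 1368 in the restored-labelled cells. Both probe sets thus gave the same account: low in the knockdown-labelled cells of mouse 281 and the restored-labelled cells of mouse 279, high in the restored-labelled cells of mouse 281. The ratio of knockdown-labelled to restored-labelled at the second probe set was 0.884, 2.48 and 0.297 in mice 278, 279 and 281 as labelled. With the restored-labelled arrays of mice 279 and 281 exchanged, the first probe set would be lower in knockdown-labelled cells of all 3 pairs. At the second, the knockdown-labelled array of mouse 281 (406) would stand above the restored-labelled array of mouse 279 (373). The differences averaged -0.23 ± 0.48 and -0.20 ± 0.60 (adjusted p = 0.941 and 0.957, limma), and the 95% intervals of 0.346-fold to 2.11-fold and 0.284-fold to 2.65-fold say little about the groups. The SDs over the 6 arrays were 0.58 and 0.72, above those of 96.7% and 98.4% of the probe sets at or above the median intensity. Without mouse 281 the differences were 0.40 and 0.55, and without mouse 279 they were -0.80 and -0.94. Without only the restored-labelled array of mouse 279 they were -0.60 and -0.71.

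Cebpb, on chromosome 2 (167688915 to 167690432), encodes C/EBPβ, which sustains granulopoiesis under infection. Its signal was low: 72.6, 56.1 and 26.4 in the knockdown-labelled cells against 64.9, 64.5 and 78.7 in the restored-labelled cells at 1 probe set. At the other it was 26.8, 18.6 and 43.7 in knockdown-labelled cells, against 33.7, 43.7 and 62.6 in restored-labelled cells. Both lay well below the median intensity of 149, so these values may hold little signal of the transcript, and at this level the constant of 16 that is added shrinks fold changes. The second probe set was lower in the knockdown-labelled cells of all 3 mice, as 10.3% of all probe sets were, with a difference of -0.47 ± 0.16 (adjusted p = 0.817, limma). The first gave -0.40 ± 0.29 (adjusted p = 0.861, limma), with mouse 278 at 0.13, mouse 279 at -0.16 and mouse 281 at -1.16. The arrays stood in a different order at each of the probe sets of Cebpb.

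Over the 5 C/EBP probe sets the median difference was -0.23, with 1 higher and 4 lower, and the medians in mice 278, 279 and 281 were -0.13, 0.15 and -1.16. Without mouse 281 the median was 0.10, without mouse 279 it was -0.51, and without only the restored-labelled array of that mouse it was -0.49.

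Of 22 genes listed for other proteins of the primary granule and its assembly, 17 were measured, 6 higher and 11 lower, with a median of -0.059, a range from -0.21 to 0.080 and none past the test. With the mice as labelled, small averages did not mean small differences in each mouse. Fcnb, a granule ficolin gene, had 1.01, 8.65 and 0.0911 times the restored-labelled level in mice 278, 279 and 281, and the myeloid receptor gene Clec5a 0.800, 5.16 and 0.160 times. Both were picked after their values were seen. In mice 279 and 281 these ratios rest on the labels. Knockdown-labelled 279 and restored-labelled 281 read 4258 and 4997 for Fcnb, and 542 and 919 for Clec5a. Knockdown-labelled 281 and restored-labelled 279 read 455 and 492 for Fcnb, and 147 and 105 for Clec5a. Ctsc encodes the dipeptidyl peptidase that activates elastase, proteinase 3 and cathepsin G. It read 4728, 4646 and 4570 in knockdown-labelled cells, against 4646, 4468 and 4358 in restored-labelled cells, a difference of 0.050 ± 0.11. Srgn, the proteoglycan core that holds the proteases in the granule, differed by 0.042 ± 0.11. Serpinb1a, which encodes an inhibitor of these proteases, gave -0.11 ± 0.14, and -0.21 ± 0.14 at another probe set. The smallest unadjusted p values of the list were those of the lysosomal hydrolase genes Gaa (-0.18 ± 0.12), Gusb (-0.13 ± 0.14) and Hexa (-0.12 ± 0.13).

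Regulators that work with the C/EBP factors were mixed. Of 24 listed 23 were measured, 13 higher and 10 lower, with a median of 0.040 and none past the test. Spi1, which encodes PU.1, read 1476, 1539 and 1254 in knockdown-labelled cells, against 1644, 1440 and 1793 in restored-labelled cells, a difference of -0.19 ± 0.16. Gfi1, a repressor that favours granulocytes over monocytes, gave -0.17 ± 0.25, with mice 278, 279 and 281 at -0.21, 0.42 and -0.73. Irf8, which favours monocytes and dendritic cells, gave -0.044 ± 0.19. Spi1, Gfi1 and Irf8 each had mouse 279 on the higher and mouse 281 on the lower side, like the granule genes. Of the 23 measured regulators 9 did so (39.1%), against 23.5% of all probe sets.

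Trib2 encodes a pseudokinase that directs the breakdown of C/EBPα. It read 1623, 2664 and 1689 in the knockdown-labelled cells, against 1115, 1349 and 1540 in the restored-labelled cells. The groups did not overlap at this probe set, as 8.11% of all probe sets did not with the knockdown-labelled group higher. The difference was 0.55 ± 0.20 (adjusted p = 0.817, limma), and 2 dim probe sets gave 0.65 and -0.055. The related Trib1, with a mean intensity below 149, gave 0.32 ± 0.25. Cebpg and Ddit3, which encode partners that hold C/EBP factors in less active pairs, gave 0.040 ± 0.12 and -0.050 ± 0.12. Egr2, a factor of the monocyte branch, gave -0.50 ± 0.19 from intensities below 149 on average, and Nfil3, a basic leucine zipper factor, gave -0.56 ± 0.24. The groups of Egr2 and Nfil3 did not overlap either, as for 4.1% of all probe sets on the lower side, and neither gene passed the test (adjusted p = 0.817 and 0.823, limma).

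Among receptors, 16 of 19 listed genes were measured, 7 higher and 9 lower, with a median of -0.081 and none past the test. Csf3r, the receptor of G-CSF, read 1282, 1015 and 1235 in the knockdown-labelled cells, against 1592, 1622 and 1365 in the restored-labelled cells. The groups thus did not overlap, as for 4.1% of all probe sets on the lower side. The difference of Csf3r was -0.37 ± 0.15 (adjusted p = 0.818, limma). Csf1r, the receptor of M-CSF, gave -0.40 ± 0.16 (adjusted p = 0.818, limma), and -0.32 and -0.34 at other probe sets. Flt3, a receptor of multipotent and lymphoid-primed cells, gave 0.27 ± 0.14.

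Markers of other cell types were read beside the members, and none of these genes passed the test. Of the 14 macrophage and monocyte genes 3 were higher and 11 lower, with the smallest unadjusted p for the complement genes C1qa (-0.94 ± 0.16) and C1qb (-1.39 ± 0.33) and the mannose receptor gene Mrc1 (-0.83 ± 0.24). C1qa and Mrc1 had mean intensities below 149. The summed intensity of this list was 10085 to 16567 in knockdown-labelled and 10788 to 17716 in restored-labelled cells. Of 8 mast cell and basophil genes measured, 1 was higher and 7 were lower, with sums of 5961 to 7992 against 6834 to 8781. Cpa3 was at -0.31 ± 0.13, Ms4a2 at -0.18 ± 0.18 and Cma1, with a mean intensity of only 56.1, at -0.78 ± 0.24. In the secondary granule list 8 were higher and 8 lower, with a median of 0.065 and a range from -0.43 to 1.04. The smallest unadjusted p values were all on the higher side, for Ngp (1.04 ± 0.64), Cd177 (0.84 ± 0.70) and Ltf (0.99 ± 0.87). With the mice as labelled, Ngp, Cd177 and Ltf were higher in mouse 279, at 2.77, 2.72 and 3.52, and lower in mouse 281.

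Of 11 B and plasma cell genes measured, 9 were higher and 2 lower. Those of smallest unadjusted p were Tnfrsf17 (1.25 ± 0.20, mean intensity 134, below 149), Mzb1 (1.44 ± 0.24) and Ighm (2.14 ± 0.39). The largest difference was that of Irf4 (2.37 ± 0.51), named after its value was seen. Other probe sets of Ighm lay between -3.36 and 2.05, and several of them were far higher on the restored-labelled array of mouse 279 than on the knockdown-labelled arrays. Sums of that list were 20290 to 32505 in knockdown-labelled and 15660 to 16804 in restored-labelled cells. Of 7 erythroid genes 6 were higher and 1 lower, with Hbb-b2 at -0.39 ± 0.12, Car1 at 0.25 ± 0.13 and the dim Alas2 at 0.25 ± 0.14, and sums of 15831 to 25892 against 15300 to 23132. Of 8 stem and multipotent cell genes 7 were higher and 1 lower, with Flt3 as above, Mecom at 0.21 ± 0.12 and Kit at 0.22 ± 0.13, and sums of 38044 to 40688 against 36216 to 36435. The differences of this list ran from -0.50, for the 1 lower gene, to 0.27. The part of these cell types in the values of the members was not tested.

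The genes whose profile over the 6 arrays lay closest to that of Mpo were Ubp1, Rdh10, Rnaseh2c, Mbd2 and Samd10, with root mean square differences of 0.015 to 0.028 on the log2 scale, against a median of 0.16 over 10818 genes. For Cebpa they were Ppp3ca, Appbp2, Ppp2r5a, Gtf2a2 and Stt3a, at 0.012 to 0.017, against a median of 0.15. As Mpo and Cebpa hardly varied, genes that also hardly varied came closest. The members were left out of this comparison, so it does not show whether another granule member lies near Mpo.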

How the data were processed

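RNA of sorted LSK cells was amplified and labelled with NuGEN Ovation V2 and hybridized to Affymetrix mouse 430 2.0 arrays, per the labels' protocols. The authors deposited 1 linear intensity per probe set and array; the labels used here do not name the summary or normalization behind it. Of 45101 probe sets 64 controls were left out. The array annotation names 34945 by 1 symbol, 932 by several and 9160 by none. Coordinates are from RefSeq (GRCm38.p6).

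Intensities were taken to log2(value + 16) and fitted with limma 3.58.1 in R 4.3.3, with a fixed term for mouse, because per the labels each animal gave both populations. Same-mouse deviations correlated at 0.45, -0.18 and -0.30 in mice 278, 279 and 281, so the pairing rests on the labels and not on the data in mice 279 and 281; no other pairing was fitted. Adjustment was by Benjamini-Hochberg across the 45037 tested. With 3 mice, an exact two-sided sign-flip test could not go below p = 0.25 and was not used. Other genes are represented by their brightest probe set. Lists are described by counts and medians, with no set test.

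Named are the members, 3 genes of smallest unadjusted p in each of 9 lists, 12 regulators, receptors and granule proteins chosen for their roles, and the 5 profiles closest to Mpo and Cebpa. Members and lists were chosen with earlier results of these data known. The 12 alternatives were no block, quantile normalization, median centring, added values of 1 and 64, a filter at the median intensity, trend and robust eBayes, 1 probe set a gene, each mouse left out, and the restored-labelled array of mouse 279 left out. The fit was tested on simulated data. Figures were drawn with matplotlib 3.10.9.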

Additional observations from a re-analysis of the deposited data

How the results depend on the processing

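No member probe set passed the adjusted threshold under any of the 12 alternatives. Over all probe sets the count of calls stayed at 0 except with trend and robust eBayes, where 1 was called (Igkv9-120). With no replicate block 0 probe sets were called, and the count of members at unadjusted p below 0.05 was 0 instead of 1. That count was also 0 with trend and robust eBayes, with 64 added, in the fit of probe sets at or above the median intensity and with 1 probe set a gene, where in the last pair the Cebpb probe sets were left out by the filter. It was 0 to 0 with a mouse or the restored-labelled array of mouse 279 left out. The difference of Cebpa was -0.052 with median centring. With mice or that array left out, differences ran from -0.11 to 0.037 for Mpo, -0.37 to 0.21 for Elane, -0.23 to 0.14 for Prtn3, -0.24 to 0.10 for Ctsg and -0.44 to 0.27 for Ms4a3. They ran from -0.80 to 0.40 and -0.94 to 0.55 for the probe sets of Cebpd. The upper end of each came without mouse 281, and the cause was not tested. The median of the granule probe sets was -0.17 with median centring, and that of the C/EBP probe sets was -0.33 with median centring and -0.075 with 1 probe set a gene. Of all probe sets, 1613 stood at an unadjusted p below 0.05 without mouse 278, 3185 without mouse 279 and 2650 without mouse 281, against 2705 with all mice. Values of single mice depend on the labels of mice 279 and 281.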

Other observations

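Cebpd and Ms4a3 varied more than Mpo or Cebpa, so the genes closest to them over the 6 arrays were looked up too. This choice was made after the values were seen, and the members were again left out of the comparison. Closest to Cebpd were Fcgr3, Id2, Fstl3, Hsd17b1 and Hp, with root mean square differences of 0.11 to 0.14 on the log2 scale, against a median of 0.68 over 10818 genes. Fcgr3 encodes a receptor for immunoglobulin G that is used to sort granulocyte-monocyte progenitors. It read 2639, 3796 and 1565 in the knockdown-labelled cells of mice 278, 279 and 281, against 3359, 1399 and 4540 in the restored-labelled cells. Hp, which encodes haptoglobin, read 3323, 5022 and 1712 in knockdown-labelled cells, against 3971, 1542 and 5935 in restored-labelled cells. Closest to Ms4a3 were Nxt2, Msrb1, Ap3s1, Tlr4 and Tmem38b, at 0.049 to 0.081 against a median of 0.34.

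Fcnb, which encodes a ficolin stored in granules, had the largest SD among the 17 other granule and assembly genes measured. It read 1748, 4258 and 455 in the knockdown-labelled cells, against 1725, 492 and 4997 in the restored-labelled cells. Clec5a, a receptor of myeloid cells, read 347, 542 and 147 in knockdown-labelled cells, against 433, 105 and 919 in restored-labelled cells. Both genes were picked after their values were seen.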
